A study of Mus musculus with 4 samples.

Results

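Formins are proteins that start and lengthen unbranched actin filaments, and 9 of the mouse formin genes were examined here: Diaph1, Diaph2 and Diaph3, Fmnl1, Fmnl2 and Fmnl3, Daam1 and Daam2, and Inf2. They were chosen by gene symbol as a family, with earlier results of these data known but no value in the rule, and each gene was read from the brightest probe set annotated to that symbol alone. That gave 8 genes, each with 1 probe set, out of the 19505 genes tested, and Fmnl3 was not analysed here. The arrays came from 2 Hem1 KO mice, labelled as lacking Hem1, the product of Nckap1l, and from 2 WT mice, with 1 array of macrophages per mouse. The part of Nckap1l that was removed, the cells in which it was removed, and the strain and age of the mice are not given in the sources used here. In both genotypes, marrow from the femur was turned into macrophages over 8 days in RPMI with 20% L929-conditioned medium, a source of the growth factor CSF1, and 10% fetal calf serum. The series was made to compare gene expression with and without Hem1.

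Actin filaments are built in cells by several kinds of nucleator. The Arp2/3 complex, switched on at the membrane by the WAVE complex that holds Hem1, makes branches, whereas a formin dimer sits on the growing end of a single filament and feeds it with actin bound to profilin. Its FH2 domain holds the filament end and its proline-rich FH1 domain collects profilin with actin. Diaphanous, FMNL and DAAM formins fold on themselves and are opened by small GTPases. Macrophages use such filaments in filopodia, phagocytic cups and podosomes, the adhesive actin cores of these cells.

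Values are log2 RMA values as deposited, and a probe set's value was not set against that of another gene, since probes differ in brightness. Background was set per array at the 95th percentile over 1450 genes of chemosensory receptors (for smell, pheromones and taste), 6.04 and 5.38 on the Hem1 KO arrays and 5.87 and 5.51 on the WT arrays (replicates 1 and 2). Array medians over all genes were 6.95 and 6.49 for Hem1 KO and 6.82 and 6.42 for WT, so that the replicate 1 arrays read higher in both genotypes, and the mean of the medians was 0.10 higher for Hem1 KO. Nckap1l, the targeted gene, read 10.04 and 9.62 on the Hem1 KO arrays and 11.37 and 11.11 on the WT arrays, a log2 difference of -1.41 (SE 0.32, adjusted p = 0.0467 by limma). That call ended among the brighter genes only (adjusted p = 0.0898) and with every probe set and control tested (adjusted p = 0.121). Leaving out any 1 array gave differences of -1.62 to -1.20. A probe outside the removed part would say nothing about the labels.

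Limma called none of the 8 formins. At a Benjamini-Hochberg adjusted p under 0.05 there were 0 higher and 0 lower, where 1.48% of all genes were called higher, 0.133% lower and 1.61% in either direction, so that 0 of 8 lies near the background. At a raw p below 0.05, before adjustment, limma gave 0 higher and 1 lower, Diaph1, against 3.63% and 1.57% of all genes. The median log2 difference of the 8 genes was 0.03, beside 0.01 over all genes, and their median size without regard to sign was 0.29, beside 0.18. Every difference is Hem1 KO minus WT with limma's standard error (SE), n = 2 arrays per genotype. The smallest difference limma called for any gene was 1.39 in size. The 95% intervals of 7 of the 8 formins, before any adjustment for the number of genes, stayed inside that size, the exception being Diaph1. That size comes from the calls in these same data and sets no limit on what change matters. The intervals still reached 1.32 for Diaph3, 1.21 for Daam2 and 1.06 for Inf2. With 2 arrays on each side, the smallest two-sided p that exact permutation allows is 0.333. RNA of whole cultures was measured, so that fewer cells of a type and less RNA per cell cannot be told apart.

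**Figure D1:**
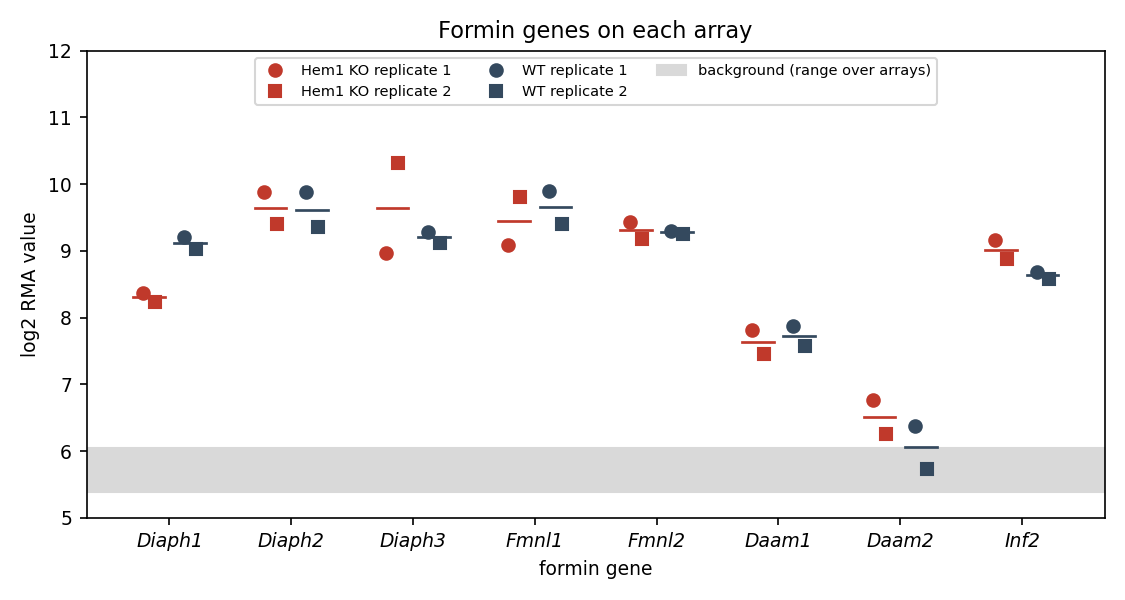
Log2 RMA value (vertical axis) of the 8 formin genes on each array, Hem1 KO in red left of WT in dark grey, circles for replicate 1, squares for replicate 2 and bars for the mean of the 2 arrays. The grey band spans the background of the arrays, 5.38 to 6.04. Diaph1 and Inf2 are the genes whose genotypes do not overlap, and Diaph3 has its highest value on Hem1 KO replicate 2.

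Diaph1 encodes mDia1, which in mouse macrophages takes part in uptake through complement receptor 3 and lengthens filaments in protrusions. It read 8.37 and 8.24 on the Hem1 KO arrays and 9.22 and 9.03 on the WT arrays. Both Hem1 KO arrays lay below both WT arrays. As deposited, the replicates of a genotype lay close together, with an SD of 0.10 in Hem1 KO and 0.13 in WT. Relative to the array medians they lay further apart, at 1.42 and 1.75 for Hem1 KO and 2.40 and 2.61 for WT. The log2 difference was -0.81 (SE 0.31, 95% interval -1.49 to -0.14), equal to 1.76-fold, with a raw p of 0.0214 and an adjusted p of 0.583 by limma. Of all genes, 3.67% had a p as small or smaller, and the gene did not pass the threshold. Leaving out any 1 array gave -0.91 to -0.72. The adjusted p by limma was 0.0985 with the array medians subtracted (-0.91) and 0.118 after quantile normalization (-0.78). It was 0.161 with a variance prior that follows intensity, 0.383 among the brighter genes only and 0.941 with every probe set and control tested.

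Diaph2 encodes the mouse counterpart of human DIAPH2, a formin linked to endosome movement in other cells. It read 9.88 and 9.41 on the Hem1 KO arrays and 9.88 and 9.35 on the WT arrays. The genotypes overlapped almost fully, and in each the replicate 1 array was the higher. Relative to the array medians the values were 2.92 and 2.92 for Hem1 KO and 3.06 and 2.93 for WT. The log2 difference was 0.02 (SE 0.34, 95% interval -0.70 to 0.75, adjusted p = 1 by limma) as deposited, and -0.0757 with the array medians subtracted.

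Diaph3 encodes mDia2, which builds filaments of the contractile ring when cells divide and is needed for division of mouse erythroblasts. It read 8.96 and 10.32 on the Hem1 KO arrays and 9.28 and 9.12 on the WT arrays. The WT arrays lay between the Hem1 KO arrays, replicate 2 of which was the highest and replicate 1 the lowest. The mean difference of 0.44 (SE 0.41, 95% interval -0.44 to 1.32, adjusted p = 1 by limma) was smaller than the distance of 1.36 between the Hem1 KO arrays. It became 1.12 without Hem1 KO replicate 1 and turned to -0.24 without Hem1 KO replicate 2.

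Over all genes the median of Hem1 KO replicate 2 minus replicate 1 was -0.38. A distance of 1.36 or more between the Hem1 KO arrays was found for 1.5% of genes in either direction and for 0.410% in the direction of Diaph3. Among the other 7 formins, replicate 2 minus replicate 1 in Hem1 KO ran from -0.50 to 0.72. Genes of mitosis and cytokinesis shared the order of the Hem1 KO arrays with Diaph3, while the order of the WT arrays varied among them. All 15 measured were higher on Hem1 KO replicate 2 than on replicate 1, by 0.54 to 2.39 with a median of 1.58. Of all 19505 genes, 3533 were higher on Hem1 KO replicate 2 than on replicate 1. All 15 were also higher on Hem1 KO replicate 2 than on both WT arrays, as were 3201 of all genes. On Hem1 KO replicate 1, 13 of the 15 lay below both WT arrays, as did 3627 of all genes. On the WT arrays the median of replicate 2 minus replicate 1 for these genes was -0.05, against -0.16 for Diaph3. Limma called 0 of the 15 between genotypes, with 0 at a raw p below 0.05 either way and a median difference of 0.16. Those with the smallest p were Birc5, which encodes survivin of the chromosomal passenger complex (0.54, SE 0.41), and Ect2, which acts at the division plane (0.51, SE 0.36, above background on 2 of 4 arrays). The part that cell division in the cultures has in the Diaph3 values was not tested.

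**Figure D2:**
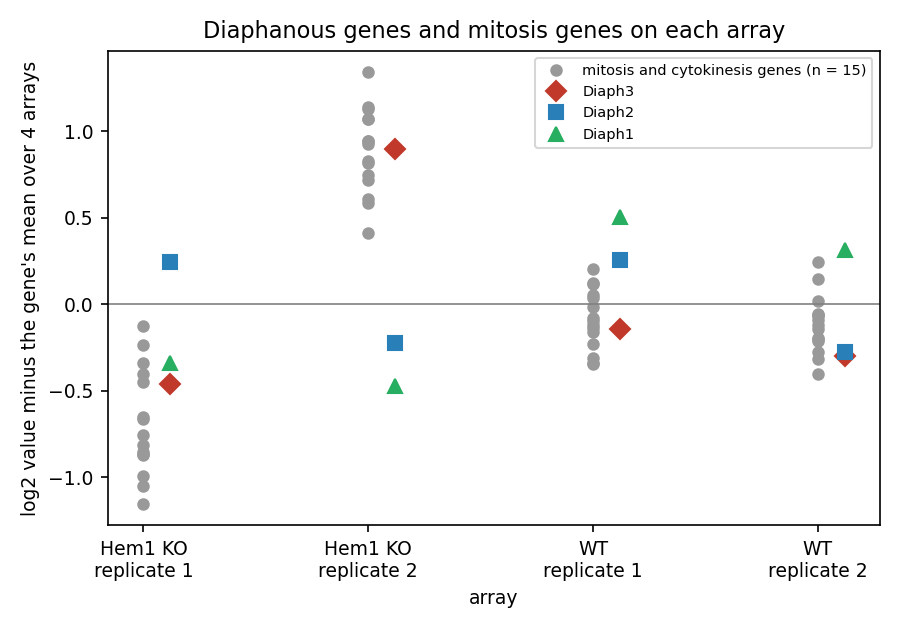
Log2 value on each array minus the gene's own mean over the 4 arrays (vertical axis), for the 15 measured genes of mitosis and cytokinesis (grey circles) and for Diaph3, Diaph2 and Diaph1. On Hem1 KO replicate 2 all grey circles and Diaph3 lie above 0, on Hem1 KO replicate 1 they lie below 0, and Diaph2 and Diaph1 do not share that order.

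Promoters of many division genes carry a CCAAT box, bound by NF-Y, and a CHR element, through which MuvB complexes time expression to the late cell cycle. The RefSeq promoter of Diaph3 is shown because its Hem1 KO values had the order of those of the division genes. That of Cdk1, the kinase that starts mitosis, is shown for comparison. It is the division gene with both motifs whose distance between the Hem1 KO arrays was nearest that of Diaph3. This choice and the motifs were made after the values were seen. Each stretch runs from 250 bases before to 50 bases after the annotated start, 5′ to 3′ on the gene's strand in GRCm38.p6. Capitals mark CCAAT and TTTGAA (CHR) on either strand, read as ATTGG and TTCAAA where the match is on the other strand. Diaph3 lies on the minus strand at chr14:87141175-87141474 and Cdk1 on the minus strand at chr10:69352863-69353162.
Diaph3: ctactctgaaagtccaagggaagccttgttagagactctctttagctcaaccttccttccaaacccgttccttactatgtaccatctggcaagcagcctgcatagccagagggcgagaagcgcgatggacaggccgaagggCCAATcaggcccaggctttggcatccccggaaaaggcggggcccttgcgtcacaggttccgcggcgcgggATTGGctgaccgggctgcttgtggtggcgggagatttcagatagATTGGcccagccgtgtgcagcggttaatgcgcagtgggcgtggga
Cdk1: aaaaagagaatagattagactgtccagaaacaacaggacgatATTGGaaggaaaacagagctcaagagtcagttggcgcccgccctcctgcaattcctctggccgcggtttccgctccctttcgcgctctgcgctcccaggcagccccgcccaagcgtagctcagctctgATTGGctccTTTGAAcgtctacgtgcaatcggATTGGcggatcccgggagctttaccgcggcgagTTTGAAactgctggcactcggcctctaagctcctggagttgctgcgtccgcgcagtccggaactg
The Diaph3 window held 3 matches to CCAAT, starting at -109, -39 and 6 from the start site, and 0 to TTTGAA. The Cdk1 window held 3 to CCAAT and 2 to TTTGAA. The matches did not overlap each other. CCAAT was in 37.4% of the 32851 mouse promoter windows of this length, and TTTGAA in 17.9%. Counted by gene, 11096 of 27025 held CCAAT and 5466 held TTTGAA. Of the 13 division genes with a promoter entry, 9 held CCAAT and 10 held TTTGAA. Of the 7 formin genes with an entry, 2 held CCAAT, Diaph3 and Daam1, and 0 held TTTGAA. A match describes these letters in this window and does not show binding.

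FMNL formins answer to Cdc42 and Rac. Fmnl1, the leukocyte member, encodes a protein found at podosomes of human macrophages. It read 9.09 and 9.81 on the Hem1 KO arrays and 9.90 and 9.40 on the WT arrays. The highest and the third highest value were WT and the genotypes overlapped. Fmnl1 and Diaph3 were the 2 formins that read higher on Hem1 KO replicate 2 than on replicate 1, for Fmnl1 by 0.72. Its log2 difference was -0.20 (SE 0.35, 95% interval -0.96 to 0.56, adjusted p = 1 by limma), and it was 0.16 without Hem1 KO replicate 1 and -0.56 without Hem1 KO replicate 2.

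Fmnl2 encodes a formin of filopodia and lamellipodia that binds active Cdc42. It read 9.43 and 9.19 on the Hem1 KO arrays and 9.30 and 9.25 on the WT arrays, with the WT values between the Hem1 KO values. Its log2 difference was 0.03 (SE 0.31, 95% interval -0.64 to 0.70, adjusted p = 1 by limma) as deposited and -0.0709 with the array medians subtracted.

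DAAM formins bind Dishevelled, an adaptor of Wnt signalling, and in other cells build bundles with fascin in filopodia. Daam1 read 7.82 and 7.46 on the Hem1 KO arrays and 7.87 and 7.57 on the WT arrays. The genotypes overlapped, and the log2 difference was -0.08 (SE 0.32, 95% interval -0.78 to 0.61, adjusted p = 1 by limma). Daam2 read 6.76 and 6.26 on the Hem1 KO arrays and 6.38 and 5.73 on the WT arrays. It was the formin closest to background, which it exceeded by 1.16-fold to 1.84-fold across the 4 arrays, and the genotypes overlapped. Its log2 difference was 0.46 (SE 0.35, 95% interval -0.29 to 1.21, adjusted p = 1 by limma). Without WT replicate 2 it was 0.14, and without WT replicate 1 it was 0.78.

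Inf2 encodes a formin that can both assemble and sever filaments and that acts at the endoplasmic reticulum in mitochondrial division. It read 9.16 and 8.88 on the Hem1 KO arrays and 8.68 and 8.59 on the WT arrays. Both Hem1 KO arrays lay above both WT arrays, by 0.20 at the nearest pair. The log2 difference was 0.38 (SE 0.31, 95% interval -0.29 to 1.06, adjusted p = 1 by limma), and it was 0.25 to 0.52 when any 1 array was left out. Diaph1 and Inf2 were thus the 2 of 8 formins whose genotypes did not overlap, 1 in each direction, where 25.8% of all genes did not overlap, 12.5% higher and 13.3% lower.

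No formin of the 8 differed by 1 or more on the log2 scale, the size from which genes of like pattern were to be named, and none are named.

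Of 6 other formin genes measured, limma called 0, with 1 higher and 0 lower at a raw p below 0.05 and a median difference of 0.03. That gene was Fhdc1, which encodes a formin that binds microtubules and acts on the Golgi. It read 8.91 and 8.11 on the Hem1 KO arrays and 7.33 and 6.86 on the WT arrays. It thus lay higher with no overlap, as did 12.5% of all genes. The log2 difference was 1.41 (SE 0.36, adjusted p = 0.0863 by limma), the largest in size among the 14 formin genes measured. Fhdc1 passed the threshold with the array medians subtracted (1.31, adjusted p = 0.0118 by limma) and with a variance prior that follows intensity (adjusted p = 0.00454). It did not pass after quantile normalization (1.40, adjusted p = 0.0528), among the brighter genes only (adjusted p = 0.194) or with every probe set and control tested (adjusted p = 0.211). Leaving out any 1 array gave differences of 1.01 to 1.81. Next by p was Fmn1, the founding formin of limb development, with -0.28 (SE 0.31). Fmn2 lay at or below background on all arrays.

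**Figure D3:**
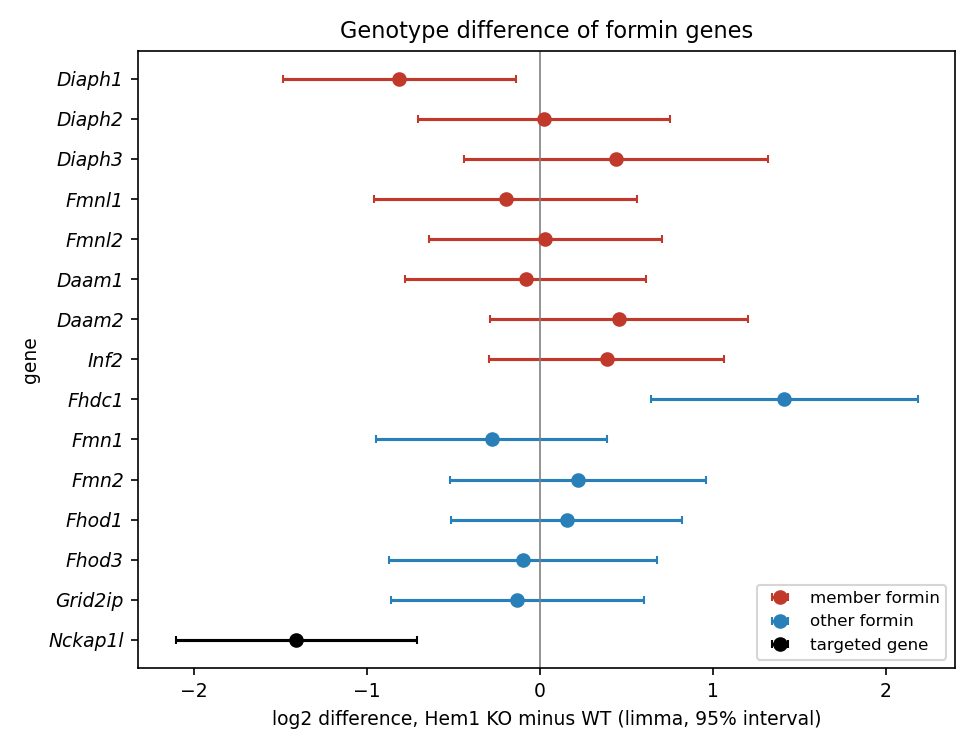
Log2 difference, Hem1 KO minus WT (horizontal axis), with limma's unadjusted 95% interval, for the 8 formins examined (red), the 6 other formin genes (blue) and Nckap1l (black). The intervals of Diaph1, Fhdc1 and Nckap1l leave out 0, and of these Nckap1l passed the adjusted threshold.

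The 2 measured Dishevelled genes that encode partners of DAAM formins had 0 calls by limma, also at a raw p below 0.05. Dvl3 stood at 0.52 (SE 0.33) and Dvl1 at 0.22 (SE 0.31). Both lay higher without overlap, as did 12.5% of all genes.

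Among 5 genes of profilins, actin and the actin-recycling CAP proteins, limma called 0, with 1 higher at a raw p below 0.05 (median -0.10). That was Cap2, whose human protein with modified actin holds INF2 inactive. Cap2 read 6.56 and 6.59 on the Hem1 KO arrays and 5.97 and 5.31 on the WT arrays, the last at background (0.93, SE 0.33, adjusted p = 0.464 by limma). The profilin gene Pfn2 stood at 0.26 (SE 0.34). Of 7 nucleators with WH2 domains, limma called 0, with 0 at a raw p below 0.05 and a median of 0.15. Lmod1, a leiomodin of smooth muscle, stood at 0.66 (SE 0.32) and Cobl, cordon-bleu, at 0.71 (SE 0.43, above background on 3 of 4 arrays). Cobl stood at 1.46 without Hem1 KO replicate 2 and at -0.0288 without Hem1 KO replicate 1.

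All 4 genes of microtubule proteins that bind Diaphanous formins lay under 0, as did 9392 of all 19505 genes. Limma called 0 of the 4, with 1 lower at a raw p below 0.05 and a median of -0.39. Clip1, which encodes the plus-end protein CLIP-170 and works with mDia1 in phagocytosis, read 8.25 and 8.08 on the Hem1 KO arrays and 9.03 and 8.77 on the WT arrays. Both Hem1 KO arrays lay below both WT arrays, as was found for 13.3% of all genes. The difference was -0.73 (SE 0.31, adjusted p = 0.797 by limma). Apc, a microtubule and actin nucleation factor, stood at -0.49 (SE 0.36). Of 6 partners of INF2 in mitochondrial division, limma called 0, with 0 at a raw p below 0.05 and a median of -0.14. Fis1 stood at -0.23 and the DRP1 receptor Mff at -0.20, each with an SE of 0.31. Formin activity frees the coactivators of SRF from actin monomers. Of 4 genes of SRF and its coactivators and inhibitor, limma called 0, with 0 at a raw p below 0.05 and a median of -0.24. Mrtfb stood at -0.50 (SE 0.31) and Mrtfa at -0.32 (SE 0.38).

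The 2 called genes of the lists of formin partners, Fscn1 and Enah, were both in the list of filopodium factors. Of all genes, 1.61% were called in either direction. In this list 3 of the 6 differences lay above 0 and 3 below. Fscn1, the fascin that bundles formin-made filaments, read 8.83 and 8.35 on the Hem1 KO arrays and 6.36 and 4.78 on the WT arrays. Its log2 difference was 3.02 (SE 0.45, adjusted p = 0.00281 by limma), and WT replicate 2 was not above background. With WT replicate 2 left out the difference was 2.23, so that 3.02 rests partly on a value at background. Enah, which protects growing filament ends, read 9.81 and 9.40 on the Hem1 KO arrays and 8.21 and 7.55 on the WT arrays. Its log2 difference was 1.73 (SE 0.34, adjusted p = 0.0189 by limma), and 1.39 without WT replicate 2. The call was removed by keeping only brighter genes (adjusted p = 0.0719) and by testing every probe set and control (adjusted p = 0.0587). The list of 6 had 2 called higher and 0 lower, 1 lower at a raw p below 0.05, and a median of 0.08. That 1 was Evl, a relative of Enah named after its values were seen, at 10.91 and 10.51 on the Hem1 KO arrays and 11.31 and 11.76 on the WT arrays (-0.83, SE 0.33, adjusted p = 0.658 by limma), which passed with the intensity trend (adjusted p = 0.000217). In all, 2 of the 6 lay lower and 2 higher without overlap of the genotypes, where 13.3% of all genes lay lower and 12.5% higher in that way.

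Markers of stromal cells and of macrophages were also read on the same arrays. Of 9 measured stromal markers, 6 were called higher by limma and 0 lower, with a median of 1.94. Their summed linear level was 10848 and 8280 on the Hem1 KO arrays and 3012 and 2201 on the WT arrays, while Lum and Thy1 lay at or below background on all arrays. Of 7 macrophage markers, all above background on all arrays, 0 were called by limma, with 1 lower at a raw p below 0.05 and a median of -0.37. Their summed linear level was 22144.5 and 20814 on the Hem1 KO arrays and 30661 and 23884 on the WT arrays. Each of these sums is weighted toward the brightest probe sets of its list. The part of stromal cells in the values of Fhdc1, Fscn1, Enah, Cap2, Lmod1 and Inf2, and that of the macrophage content in the values of Diaph1 and Clip1, was not tested.

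**Figure D4:**
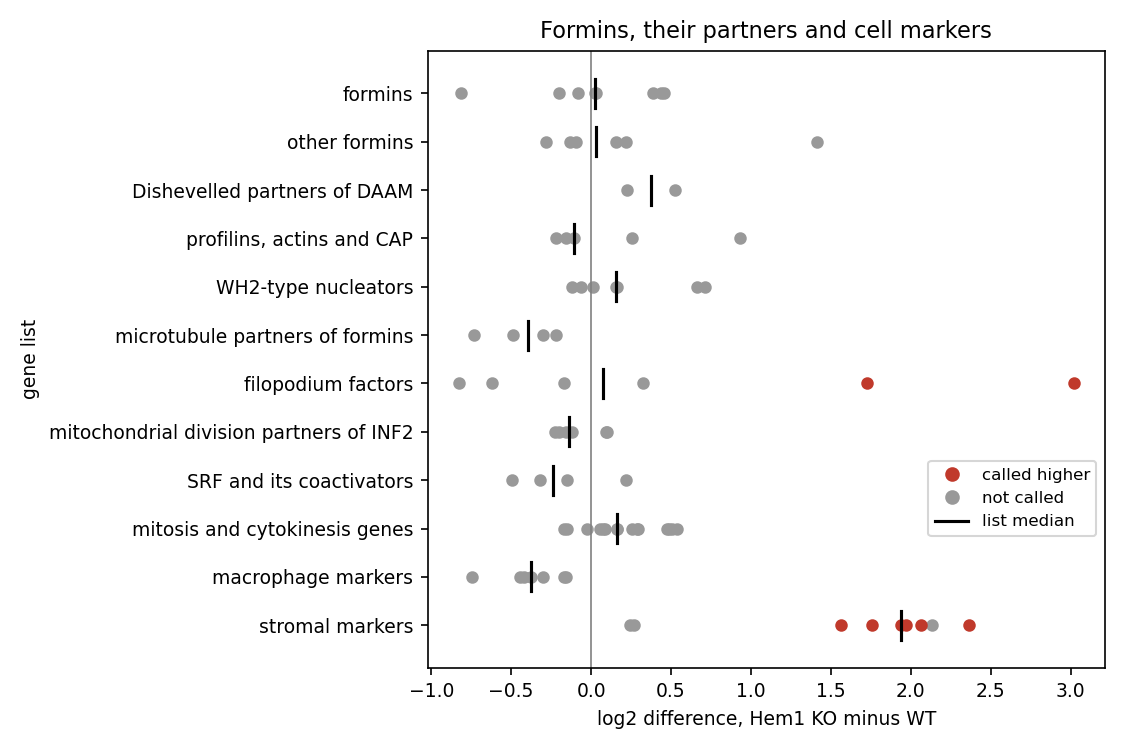
Log2 difference, Hem1 KO minus WT (horizontal axis), of each measured gene in the formins, 9 lists of their partners and 2 lists of cell markers, with red for genes called higher by limma, grey for genes not called and a black bar for the list median. The formins lie on both sides of 0 with a median of 0.03, and the called genes are 2 filopodium factors and 6 stromal markers.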

How the data were processed

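Qiagen-purified RNA was biotin-labelled for hybridisation with Affymetrix's GeneChip Pico reagents, per the labels' protocols. The deposited values are log2 values, and the submitters' processing notes name RMA without version or settings. The array medians differ, so a quantile step across these arrays was not visible. The platform annotation gives 1 gene for 19572 of the 29129 probe sets and controls, several for 0 and none for 9557. The brightest probe set was kept for 55 genes with several, which left 19505 genes. 11 listed genes were not analysed here, and 1 partner list is not reported.

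Hem1 KO minus WT was tested in limma (version 3.58.1, R version 4.3.3; lmFit and eBayes, genotype as the only term, two-sided), adjusted by Benjamini-Hochberg over all genes, and called at an adjusted p under 0.05. The prior had 11.2 degrees of freedom. The fit was also run on data simulated from its own fitted prior with independent noise. That run had no array shifts, so it cannot show how the fit behaves with those seen here. The number of arrays limits the precision. The genotypes' mice were distinct per the series' design text.

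Members and lists were chosen with earlier results of these data known. Of each partner list, called genes up to 6, or the 2 with the smallest p, are named. Alternatives left out each array, used the replicate number as a block, or changed scaling, filter, prior, probe set rule, features or threshold. A further one took background from rows taken as negative controls by their identifiers. Promoters are from RefSeq (GRCm38.p6).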

Additional observations from a re-analysis of the deposited data

How the results depend on the processing

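Of the 8 formins examined, none passed the threshold in any alternative that kept all 4 arrays, except Diaph1 with the replicate number as a block. That block gave 1 formin lower (Diaph1, -0.81, adjusted p = 0.0442 by limma). The labels do not say that a number marks a shared litter or day, and the deviations of same-numbered arrays correlated at 0.24 across genes. With that block 620 genes were called higher and 199 lower, against 288 and 26 without it, and Fhdc1 (adjusted p = 0.000625) and Cap2 (adjusted p = 0.0315) passed. The sign of Diaph2 (-0.0757) and Fmnl2 (-0.0709) turned when array medians were subtracted. Leaving out 1 array gave 0 formins in either direction, 185 to 545 genes higher and 26 to 101 lower, and differences of -0.27 to 0.10 for Daam1, -0.24 to 0.29 for Diaph2, -0.24 to 1.12 for Diaph3, -0.56 to 0.16 for Fmnl1 and -0.0928 to 0.15 for Fmnl2, all of which changed sign. Among partner genes the range then crossed 0 for Birc5 (-0.13 to 1.21), Cobl (-0.0288 to 1.46), Mrtfa (-0.79 to 0.14) and Pfn2 (-0.0117 to 0.52). Such fits assume that a lone array varies like the other genotype. They gave each gene reported here the same SE, 0.40 without a Hem1 KO array and 0.50 without a WT array. The differences of these fits are therefore given without p-values or counts of called genes. Testing only the brighter genes gave 165 higher and 8 lower. Genes called lower numbered 70 with array medians subtracted, 16 after quantile normalization and 205 with the intensity trend. The cause of these changes was not tested. All 8 formins lay above the receptor background on all arrays. Another level was the 95th percentile of 6546 rows taken as negative controls by their identifiers (10.6 to 10.9). It lay above the array medians (6.42 to 6.95), 0 formins exceeded it, and 1157 of all genes did on at least 1 array.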

Other observations

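Promoter windows of the formins were also searched, after the values were seen, on both strands for the E2F motif TTCCCGC and for the CArG box, the site of SRF. The E2F motif was in the windows of 1 formin gene of 7, Inf2, and of 0 of the 13 division genes. Over all genes with an entry it was found for 1429 of 27025, and over all windows in 4.60%. The CArG box was in 0 formin windows and in 1.63% of all windows. Among markers of other cells, Cdh5, the cadherin of endothelium, read 6.25 and 6.93 on the Hem1 KO arrays and was not above background on either WT array, at least 1.86-fold higher (adjusted p = 0.00622 by limma, and 0.0738 after quantile normalization), while the other 2 measured endothelial markers were not called. Mcpt8, a basophil granule protease, had the largest positive difference of all genes tested. It read 10.07 and 9.52 on the Hem1 KO arrays and 5.89 and 5.22 on the WT arrays, of which 1 was above background (4.24, SE 0.35, adjusted p = 8.39e-05 by limma). The other 4 of 5 markers of basophils and mast cells lay at or below background on all arrays. Limma called 0 of 4 markers of neutrophils and their precursors, 0 of 4 of B and T cells and 0 of 3 of erythroid cells and megakaryocytes, with 0 in each list at a raw p below 0.05.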
